A study of Rattus norvegicus with 4 samples.

Results

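The genes described here encode the enzymes that oxidize, reduce, hydrolyse and conjugate foreign chemicals, lipid aldehydes, steroids and retinoids. They were chosen by their names on the array: cytochromes P450 of families 1 to 4, aldehyde dehydrogenases, aldo-keto reductases, epoxide hydrolases, the quinone reductases Nqo1 and Nqo2, glutathione S-transferases, UDP-glucuronosyltransferases and sulfotransferases. A gene entered the test when a probe of it was well above background (the scanner software's call) in at least 1 dye on at least 2 arrays, and its brightest such probe stood for it. Of 117 such names on the array (143 probes), 68 were tested, among 25534 genes tested in all.

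The arrays were hybridized to study endoglin, a co-receptor for TGF-beta and BMP ligands, in hepatic stellate cells of the rat, the pericytes that store retinoid around the liver's sinusoids. On each of the 4 two-colour arrays the Cy3 dye marked RNA of stellate cells transfected with a control siRNA. On 2 arrays the Cy5 dye marked RNA of stellate cells left untreated, and on the other two RNA of cells transfected with an siRNA against endoglin. Both groups had an array with the RNA of 1 animal and an array with a pool of 3 animals, and the labels give no strain, age, sex, culture time or siRNA sequence. No array had the dyes swapped, so an effect of the dye and an effect of the transfection cannot be told apart within 1 group. The sources do not say whether the pools include the single animals or whether arrays shared a control RNA, and the p-values cover only the spread between these arrays.

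These enzymes are best known from the hepatocyte. Cytochromes P450 add oxygen to a substrate and often make it reactive; epoxide hydrolases, aldehyde dehydrogenases, aldo-keto reductases and quinone reductases then remove epoxide, carbonyl and quinone groups, and transferases attach glutathione, glucuronate or sulfate so that the product can leave the cell. Several of the reductases and glutathione S-transferases are known targets of NRF2 (gene Nfe2l2), a factor activated by electrophiles that binds the antioxidant response element, and several cytochromes P450 are targets of the aryl hydrocarbon receptor Ahr.

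In cells given the endoglin siRNA 10 of the 68 enzyme genes rose against the control siRNA and 0 fell, by limma with Benjamini-Hochberg adjustment over all genes at 0.05. They were 3 aldo-keto reductases (Akr1c15, Akr1b8, Akr1c12), the microsomal epoxide hydrolase Ephx1, 2 glutathione S-transferases (Gsta1 and a Gstp gene), 3 cytochromes P450 (Cyp2j4, Cyp2j3, Cyp2e1) and the quinone reductase Nqo2. The rises lay between 1.30-fold (Nqo2) and 1.95-fold (Akr1c15). The members that rose made up 14.7% of those tested, and 5.25% of all genes tested rose in the same comparison; 2.87% of all genes fell. In untreated cells 0 of the 68 passed against the control siRNA by limma, where 0.709% of all genes did.

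The promoters of 4 genes assigned to probes that rose are printed here because they hold the core of the antioxidant response element, searched as TGACNNNGC on both strands. Each run is the stretch from 250 bases before to 50 bases after the gene's start, 5′ to 3′ along the gene, from RefSeq's annotation of the assembly GRCr8, with the matches in capitals. Akr1c15 lies on the minus strand at chr17:71117908-71118207, Ephx1 on the minus strand at chr13:95263068-95263367, Gstp1 on the minus strand at chr1:210769656-210769955 and Gsta1 on the minus strand at chr9:31216483-31216782.
Akr1c15: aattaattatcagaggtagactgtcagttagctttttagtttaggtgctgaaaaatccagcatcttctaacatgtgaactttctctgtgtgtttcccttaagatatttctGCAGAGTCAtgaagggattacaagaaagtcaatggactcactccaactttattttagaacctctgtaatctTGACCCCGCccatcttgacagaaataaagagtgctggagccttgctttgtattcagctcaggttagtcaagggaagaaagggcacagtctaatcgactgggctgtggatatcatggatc
Ephx1: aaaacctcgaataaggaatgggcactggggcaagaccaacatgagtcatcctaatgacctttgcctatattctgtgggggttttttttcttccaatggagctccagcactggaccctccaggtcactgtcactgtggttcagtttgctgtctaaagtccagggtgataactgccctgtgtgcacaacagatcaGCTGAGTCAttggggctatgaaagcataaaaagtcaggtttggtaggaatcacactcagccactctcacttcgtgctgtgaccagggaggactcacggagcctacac
Gstp1: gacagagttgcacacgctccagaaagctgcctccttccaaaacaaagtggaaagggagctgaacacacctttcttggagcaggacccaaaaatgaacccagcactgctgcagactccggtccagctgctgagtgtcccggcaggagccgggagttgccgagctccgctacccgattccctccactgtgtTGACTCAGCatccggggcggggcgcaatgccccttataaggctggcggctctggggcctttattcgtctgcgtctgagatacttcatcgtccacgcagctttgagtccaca
Gsta1: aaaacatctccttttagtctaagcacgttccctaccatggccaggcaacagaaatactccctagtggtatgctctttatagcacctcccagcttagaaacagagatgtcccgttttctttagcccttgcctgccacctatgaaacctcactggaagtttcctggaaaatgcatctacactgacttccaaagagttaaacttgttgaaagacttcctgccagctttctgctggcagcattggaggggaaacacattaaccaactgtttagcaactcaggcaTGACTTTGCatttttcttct

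The first match of Akr1c15 begins 140 bases before the start and reads on the other strand; the second begins 69 bases before it and reads along the gene. The match of Ephx1 begins 57 bases before the start and reads on the other strand, and the match of Gstp1 begins 61 bases before it and reads along the gene; both overlap a match of the AP-1 motif TGANTCA. The match of Gsta1 lies after the start, from base 31 on. A second start listed for Ephx1, with its promoter at chr13:95275803-95276102, has no match. The 10 genes that rose have 11 promoters in the table, of which 4 (36.4%) hold the motif, against 7 of 49 (14.3%) for the tested members that did not pass and 12.1% of all 33469 promoters of the table. Gstp1 is among the 10 only through a probe assigned to it by a synonym, and the probe that carries its own name did not pass; without it 3 of 10 promoters (30.0%) hold the motif. The xenobiotic response element core GCGTG, which the aryl hydrocarbon receptor binds, is in 3 of the 11 (27.3%), in 21 of the 49 (42.9%) and in 29.7% of all promoters. A match is a description of the letters and shows no binding, these few promoters were given no test, and 9 of the 66 current gene symbols of the members have no promoter in the table.

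Signed values below are log2 ratios of Cy5 over Cy3, so that a positive value is a level above that in control siRNA cells. The deposited value table gives both untreated arrays with the opposite sign; the direction used here follows the dyes in the labels. The siRNA target, endoglin (Eng), had log2 ratios of -3.08 (1 animal) and -1.72 (pool) on the endoglin siRNA arrays and of -0.36 and -0.42 on the untreated arrays. The untreated pool array stood apart in brightness: 93.3% (Cy5) and 87.2% (Cy3) of its gene spots were called well above background, against 65.7% to 70.2% and 61.9% to 62.3% on the other arrays. Across genes the log2 ratios correlated at 0.53 between the untreated arrays and at 0.63 between the endoglin siRNA arrays, and across the groups at 0.51 between the single-animal arrays, 0.46 between the pools and 0.34 and 0.38 between an animal and a pool.

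The number of enzymes above background differed between the classes. All 14 aldehyde dehydrogenases, both quinone reductases and 15 of 16 glutathione S-transferases were tested, as were 9 of 14 aldo-keto reductases. Of 38 cytochromes P450 of families 1 to 3 only 19 were tested, of 9 of family 4 only 4, of 11 UDP-glucuronosyltransferases 4, and of 11 sulfotransferases 0. Of the 49 names not tested 4 were well above background on no array, and the other 45 on the untreated pool array alone, the array that stood apart. Those 45 include Cyp1a1 and Cyp1a2, classical targets of the aryl hydrocarbon receptor, 4 of the 5 Cyp3a genes, the soluble epoxide hydrolase Ephx2, Sult1a1 and Ugt1a1. Of the 68 tested, 51 were well above background in both dyes on all 4 arrays, and each of the 10 genes that rose was among these.

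**Figure D1:**
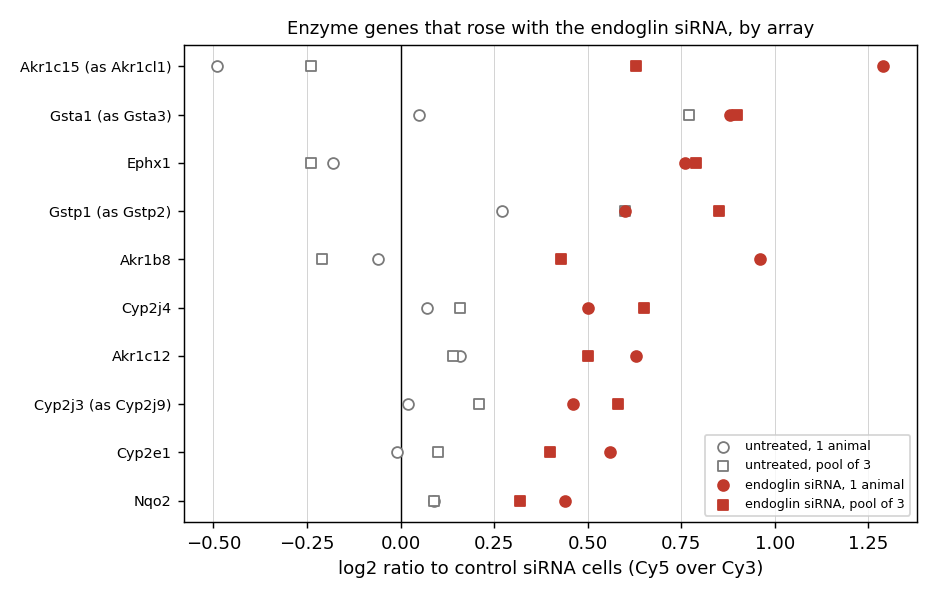
Log2 ratio to control siRNA cells (x axis, Cy5 over Cy3) of the 10 enzyme genes that rose with the endoglin siRNA (y axis), 1 point per array; red marks endoglin siRNA, open grey marks untreated, circles 1 animal and squares the pool of 3. All red points lie above 0.3, and for Ephx1, Akr1c15 and Akr1b8 both grey points lie below 0.

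Ephx1, the microsomal enzyme that opens epoxides made by cytochromes P450, had the lowest adjusted p of the enzyme genes. Its log2 ratios were 0.76 (1 animal) and 0.79 (pool) with the endoglin siRNA and -0.18 and -0.24 in untreated cells. Both endoglin siRNA arrays were therefore high, both untreated arrays low, and the groups did not overlap. Against the control siRNA Ephx1 rose 1.71-fold (0.78 ± 0.06, SE, n = 2 arrays, adjusted p = 0.0034). The difference between endoglin siRNA and untreated cells was 0.98 ± 0.09 (1.98-fold, adjusted p = 0.026), which made it the only enzyme gene to pass that comparison, in which 0.0862% of all genes passed.

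Among the aldo-keto reductases, which reduce carbonyl groups of aldehydes, ketosteroids and prostaglandins, Akr1c15 changed most. The probe, which the array names Akr1cl1, read 1.29 (1 animal) and 0.63 (pool) with the endoglin siRNA and -0.49 and -0.24 in untreated cells. The single-animal array was the higher of the endoglin siRNA arrays with the background fitted on all spots only. With the fit made without a few spots far below their local background, it read 1.29 and the pool 1.46. With the ratios of the scanner software they read 1.65 and 1.78. The groups did not overlap under any of these. With all spots in the fit Akr1c15 rose 1.95-fold against the control siRNA (0.96 ± 0.14, adjusted p = 0.012). The difference from untreated cells, 1.33 ± 0.20, did not pass (adjusted p = 0.11).

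Akr1b8, an aldose reductase-like enzyme that reduces lipid aldehydes and retinal, read 0.96 and 0.43 with the endoglin siRNA and -0.06 and -0.21 in untreated cells. The single animal gave the higher endoglin siRNA value, and both untreated values were below 0. With the fit made without the spots far below background the endoglin siRNA values were 0.96 and 0.42. With all spots in the fit Akr1b8 rose 1.62-fold (0.69 ± 0.12, adjusted p = 0.017). Akr1c12 read 0.63 and 0.50 with the endoglin siRNA and 0.16 and 0.14 in untreated cells, a 1.48-fold rise (0.57 ± 0.06, adjusted p = 0.0056) with close values within each group. On GRCr8 the neighbours of Akr1c12 are Akr1c19 and Akr1c3, that of Akr1c15 on one side is Akr1c14, and Akr1b8 lies between Akr1b1 and Akr1b10.

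Not all members of these reductase families passed. Akr1b1, the aldose reductase that reduces glucose (named Akr1b4 on the array), had a mean log2 ratio of -0.16 (adjusted p = 0.24), Akr1a1 of -0.19 (adjusted p = 0.11) and Akr1c2 (Akr1c21 on the array) of 0.06. Akr7a2 and Akr7a3, which reduce dialdehydes such as that of aflatoxin, had -0.06 and 0.05. Akr1e2 had 0.00. Akr1b7, Akr1b10, Akr1c6, Akr1c18 and Akr1d1 were not tested.

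The glutathione S-transferases couple glutathione to electrophiles, and the alpha class also reduces lipid peroxides. The probe that the array names Gsta3 matches Gsta1 in RefSeq. It read 0.88 and 0.90 with the endoglin siRNA, and 0.05 (1 animal) and 0.77 (pool) in untreated cells. The untreated pool was thus close to the endoglin siRNA arrays, and the untreated single animal close to the control. Against the control siRNA it rose 1.85-fold (0.89 ± 0.15, adjusted p = 0.016); in untreated cells its mean was 0.41 (adjusted p = 0.28).

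The probe that the array names Gstp2, assigned to Gstp1 through a synonym, read 0.60 and 0.85 with the endoglin siRNA and 0.27 and 0.60 in untreated cells. The groups met at 0.60. It rose 1.66-fold against the control siRNA (0.73 ± 0.10, adjusted p = 0.0088), its mean in untreated cells was 0.44 (adjusted p = 0.11), and the difference between the groups was 0.29 (adjusted p = 0.67). The probe named Gstp1 itself read 0.11 and 0.21 with the endoglin siRNA and -0.23 and -0.04 in untreated cells and did not pass (0.16, adjusted p = 0.25). The pi-class genes are near copies of each other, so which of them each probe measures is uncertain.

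The remaining 13 glutathione S-transferases did not pass. Gsta4, which prefers the lipid aldehyde 4-hydroxynonenal, read 0.15 on both endoglin siRNA arrays and -0.35 and -0.09 in untreated cells. Gstm2 had the lowest mean with the endoglin siRNA, -0.30 (-0.50 and -0.10, adjusted p = 0.11), and -0.31 in untreated cells. Gstt1 read -0.30 and 0.15 and Gstm3, now Gstm7, -0.23 and -0.01. Over all 15 the median was 0.07, and 8 were positive on both endoglin siRNA arrays.

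Of the quinone reductases Nqo2 rose 1.30-fold, with 0.44 and 0.32 on the endoglin siRNA arrays and 0.09 on both untreated arrays (0.38 ± 0.06, adjusted p = 0.016). Nqo1, the NAD(P)H-dependent enzyme often used as a readout of NRF2, read 0.38 (1 animal) and 0.03 (pool) with the endoglin siRNA and -0.18 and -0.06 in untreated cells. Its groups did not overlap, but the pool was near 0 and the mean of 0.21 did not pass (adjusted p = 0.23).

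Among the cytochromes P450, Cyp2j4 and Cyp2j3, neighbouring genes on GRCr8 whose family makes epoxides of arachidonic acid, rose together. Cyp2j4 read 0.50 and 0.65 with the endoglin siRNA and 0.07 and 0.16 in untreated cells (1.49-fold against the control siRNA, 0.58 ± 0.07, adjusted p = 0.0062). Cyp2j3, whose probe the array names Cyp2j9, read 0.46 and 0.58 against 0.02 and 0.21 (1.44-fold, 0.52 ± 0.07, adjusted p = 0.0098). In both genes the endoglin siRNA values lay above the untreated ones. A second, dimmer probe under the name Cyp2j9 read 0.01 and 0.05 with the endoglin siRNA, and the mean of both probes, 0.28, passed at an adjusted p of 0.039. The 2 genes are close relatives, so signal of each in the other's probe cannot be told apart here.

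Cyp2e1, the ethanol-oxidizing cytochrome P450 that also activates paracetamol and carbon tetrachloride, read 0.56 and 0.40 with the endoglin siRNA and -0.01 and 0.10 in untreated cells. It rose 1.40-fold against the control siRNA (0.48 ± 0.07, adjusted p = 0.011), and the untreated arrays stayed near the control level. Cyp2e1 is also a hepatocyte marker, and its shift was set beside those of the other hepatocyte markers listed. Of the 15 others 7 were tested, with none passing. They were Apoa1 (0.08), Apoc3 (0.02), Pck1 (0.01), Hnf4a (-0.04), Ttr (-0.06), Serpina1 (-0.06) and Fgb (-0.13). Apoa1, Ttr and Serpina1 were not well above background in the control dye on every array, so a ratio near 0 says little for them. Alb, Apoh, Ahsg, Fga, Cps1, Tat and F2 were well above background on 1 array only. The part of hepatocyte RNA in the Cyp2e1 value was not tested. The summed signal of the tested hepatocyte markers, Cyp2e1 included, was 2211 to 2429 in the control siRNA dye, 2295 to 2462 in untreated and 2314 to 2596 in endoglin siRNA cells. Of 13 stellate cell markers tested 4 rose and 2 fell with the endoglin siRNA, beside 5.25% and 2.87% of all genes. The summed signal of these 13 was 499524 to 580256 in control, 745040 to 801857 in untreated and 674031 to 717320 in endoglin siRNA cells. Fewer cells of a type and less RNA per cell cannot be told apart in such bulk samples.

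Cyp4b1, which oxidizes aromatic amines and fatty acids, read 0.94 in the single animal but 0.13 in the pool with the endoglin siRNA, and 0.19 and 0.08 in untreated cells. The arrays of the endoglin siRNA group disagreed, and the mean of 0.53 ± 0.16 did not pass (adjusted p = 0.093). Over all tested genes the log2 ratios spread less on the pool than on the single-animal endoglin siRNA array (median absolute deviation 0.05 against 0.18). On the untreated arrays this spread was 0.08 (pool) and 0.13 (1 animal). The pooled arrays each held a few spots far below their local background (4 on the endoglin siRNA pool, 6 on the untreated pool) that enter the background fit. With the fit made without them, a setting known from earlier results of these data, Cyp4b1 read 0.94 and 0.96 and rose against the control siRNA (0.95, adjusted p = 0.00051). Against untreated cells 3 enzyme genes were then higher (0.231% of all genes): Cyp4b1 (0.73, adjusted p = 0.025), Akr1c15 (1.90, adjusted p = 0.0024) and Ephx1 (0.96, adjusted p = 0.0082). Akr1c15 was also the 1 enzyme gene lower in untreated than in control siRNA cells (-0.52, adjusted p = 0.021; 0.736% of all genes were lower). On the endoglin siRNA pool array Akr1c15 moved from 0.63 to 1.46 and Cyp2e1 from 0.40 to 0.96. With that setting 13 enzyme genes rose and 4 fell (8.95% and 7.33% of all genes), and each of the 10 was among the 13. The added rises were Cyp4b1, Aldh3a2 (0.36) and Cyp2d4, named Cyp2d22 on the array. The falls were Aldh9a1 (-0.53), Aldh1l2 (-0.53), Gstm2 (-0.39) and Cyp2s1 (-0.33). With median centring in place of loess all of these falls were above 0. That setting leaves a dye trend with brightness in place, and Aldh2, at -0.13 with loess, had 1.12 under it. Its sign therefore cannot decide whether these genes fell.

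**Figure D2:**
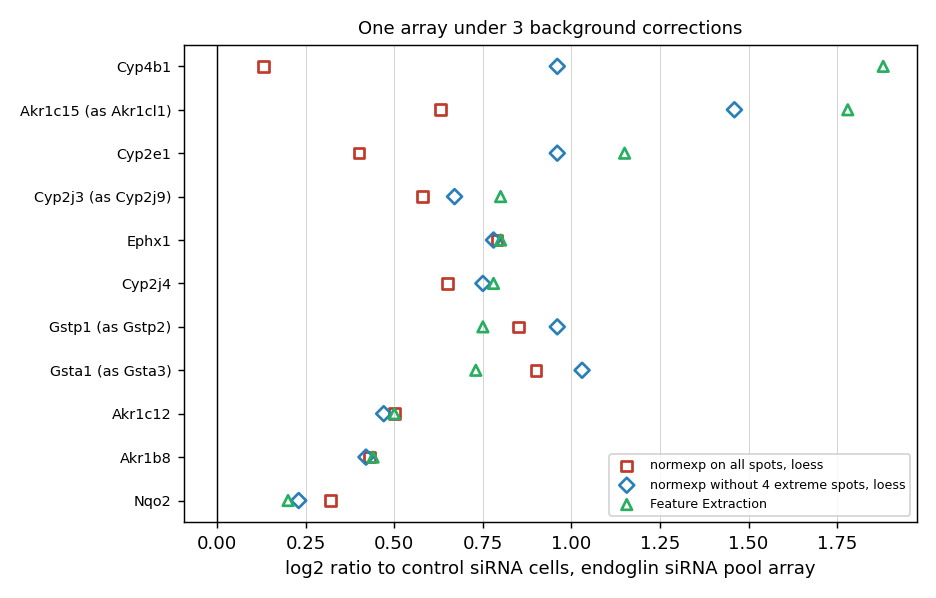
Log2 ratio on the endoglin siRNA pool array (x axis) of the 10 genes that rose and of Cyp4b1 (y axis), with the background fitted on all spots (squares), without 4 extreme spots (diamonds), and as the scanner software Feature Extraction gives it (triangles). Cyp4b1 goes from 0.13 to 0.96 and 1.88 and Akr1c15 from 0.63 to 1.46 and 1.78, while Ephx1 and Akr1b8 hardly move.

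With the background fitted on all spots none of the other cytochromes P450 tested passed. Over all 19 of families 1 to 3, the 3 that rose included, the median with the endoglin siRNA was -0.01 (range -0.27 to 0.58). The highest mean among those that did not pass was that of Cyp2d4 (0.21). Over the 4 of family 4, Cyp4b1 included, the median was 0.20. Cyp1b1, which oxidizes estradiol and polycyclic hydrocarbons and is the Ahr target best known from mesenchymal cells, had the lowest mean. It read 0.04 in the single animal and -0.57 in the pool, and -0.05 and -0.15 in untreated cells. The value rested on the pool, and its mean of -0.27 did not pass (adjusted p = 0.28); a second probe gave -0.15. Cyp4f5 had 0.27 (adjusted p = 0.059), Cyp2w1 -0.11 and Cyp2s1 -0.13. Cyp2c23, an arachidonic acid epoxygenase, was not well above background in the control dye on any array, so no fold is given; its ratios were 0.15 and -0.01 with the endoglin siRNA and 0.34 and 0.01 in untreated cells. Of the 19 genes of families 1 to 3, 11 were well above background in both dyes on every array, and for the rest a ratio near 0 says little.

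The aldehyde dehydrogenases oxidize aldehydes to acids, and the Aldh1a enzymes make retinoic acid from retinal, the step that links stellate cell retinoid to nuclear receptors. None of the 14 passed in any of the 3 comparisons. Their means with the endoglin siRNA ran from -0.38 to 0.36 with a median of -0.04, 5 being positive and 6 negative on both arrays. The Aldh1a genes read close to the control: Aldh1a1 0.16 and -0.01, Aldh1a2 -0.21 and 0.00, Aldh1a3 -0.28 and 0.07, and Aldh1a4 0.00 and 0.15. Aldh1a1, Aldh1a2 and Aldh1a4 were well above background in each dye on at most 2 arrays.

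Aldh2, the mitochondrial enzyme that clears acetaldehyde, read -0.23 and -0.02 with the endoglin siRNA and -0.08 and -0.22 in untreated cells, with the groups overlapping. Aldh3a2, which oxidizes long-chain fatty aldehydes, read 0.57 in the single animal and 0.15 in the pool, and 0.21 and 0.18 in untreated cells (mean 0.36, adjusted p = 0.068). Aldh3a1 read 0.32 and 0.11 (mean 0.21, adjusted p = 0.12). At the other end Aldh9a1, an enzyme of carnitine synthesis, read -0.58 and -0.17 with the endoglin siRNA and -0.35 and -0.30 in untreated cells (mean -0.38, adjusted p = 0.058). Aldh1l2, the mitochondrial folate enzyme, read -0.36 and -0.16 with the endoglin siRNA and 0.13 and -0.13 in untreated cells (mean -0.26, adjusted p = 0.11). Aldh5a1, the succinic semialdehyde dehydrogenase, had -0.05 with the endoglin siRNA and 0.15 in untreated cells. The 4 UDP-glucuronosyltransferases, which attach glucuronate, had means from -0.10 to -0.03.

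**Figure D3:**
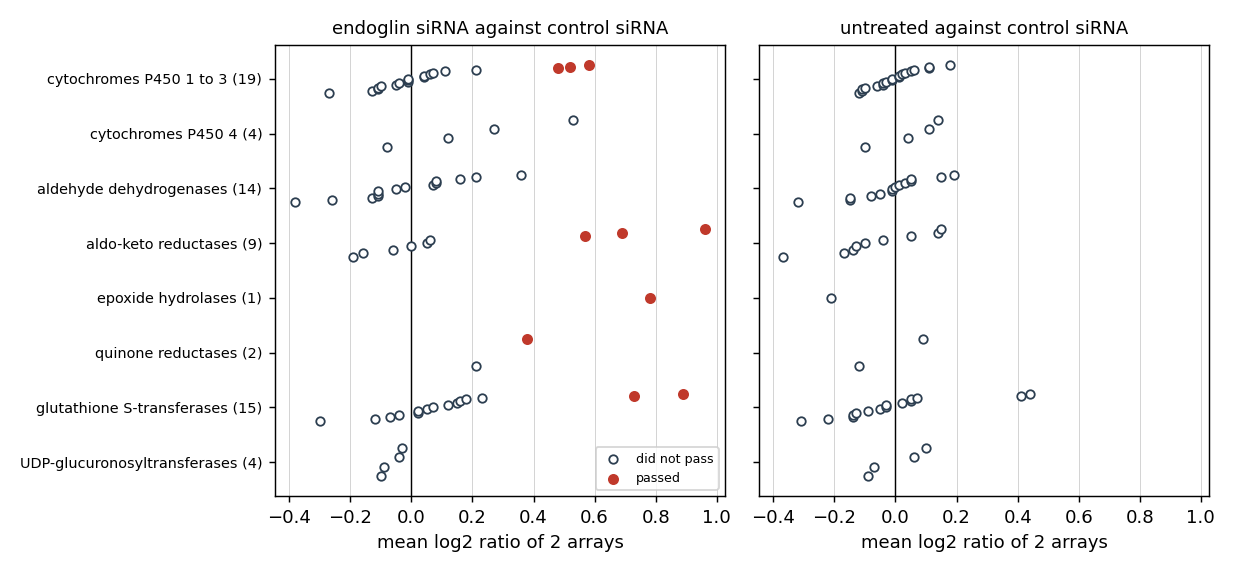
Mean log2 ratio to control siRNA cells over 2 arrays (x axis) of the 68 enzyme genes by class (y axis, number tested in parentheses), for endoglin siRNA cells on the left and untreated cells on the right; filled points passed at an adjusted p of 0.05. The left panel has 10 filled points, between 0.38 and 0.96, and the right panel none, its values running from -0.37 to 0.44.

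Taking all 68 genes, 38 had a positive and 30 a negative mean with the endoglin siRNA, and the median was 0.04, beside 0.02 over all genes tested. In untreated cells 30 were positive and 38 negative, with a median of -0.01 beside 0.00. Of the 68, 8 (11.8%) had an unadjusted p under 0.05, beside 13.6% of all genes. The highest values in untreated cells were those of the Gstp probe (0.44) and Gsta1 (0.41), and the lowest those of Akr1c15 (-0.37), Aldh9a1 (-0.32) and Gstm2 (-0.31); with the sign of the deposited values the order turns, with the Gstp probe at -0.44, Gsta1 at -0.41 and Akr1c15 at 0.37. In the same comparison 4 of 11 macrophage markers rose in untreated cells, where 0.709% of all genes passed. Lyz2 (Lyz on the array) rose by 1.70, C1qa by 1.16, Cd68 by 0.99 and C1qb by 0.96 on the log2 scale. The summed signal of the 11 markers was 22628 to 57088 in untreated and 8567 to 30341 in control siRNA cells. In endoglin siRNA cells it was 10572 to 29324, Cd14 rose by 0.55 against the control siRNA (adjusted p = 0.018), and C1qa was lower than in untreated cells (-1.09, adjusted p = 0.038). The part of such cells in the enzyme values was not tested.

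Between endoglin siRNA and untreated cells both endoglin siRNA values lay above both untreated values for 25 of the 68 genes (36.8%), beside 24.4% of all genes, and below them for 7 genes, beside 11.5% of all genes. Turned to the sign of the deposited values these were 19 genes (27.9%, beside 32.1% of all genes) and 18 genes (26.5%, beside 24.1%). This comparison sets 2 arrays against 2, and control siRNA cells are the other dye on both sides. Besides Ephx1, the largest differences were those of Akr1c15 (1.33) and Akr1b8 (0.83, adjusted p = 0.19), then Gsta1 (0.48), Cyp2j4 (0.46), Cyp2e1 (0.44) and Akr1c12 (0.42), and the lowest was that of Aldh1l2 (-0.26). None of these passed. This order holds for the dyes of the labels: with the untreated ratios turned, Gsta1 (1.30) and the Gstp probe (1.16) differed most among the 10 genes that rose, and Akr1c15 had 0.60 and Akr1b8 0.56. The result depends on the direction of the untreated arrays: turned to the sign that the deposited values have, 10 enzyme genes were higher and 2 lower in this comparison (6.61% and 4.83% of all genes), and Ephx1 passed at 0.57 (adjusted p = 0.0089).

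The other genes of these pathways came from a list of 74, of which 61 were tested. With the endoglin siRNA 7 rose and 2 fell, beside 5.25% and 2.87% of all genes. These shares also stand beside the counts by list below. In untreated cells 1 rose, where 0.709% of all genes passed. Of 10 regulators tested Nfe2l2 rose, with 0.37 and 0.54 on the endoglin siRNA arrays and 0.07 and 0.27 on the untreated arrays (0.46 ± 0.08, adjusted p = 0.016). The groups did not overlap, although the untreated pool was the nearer to them. Its inhibitor Keap1 had -0.07, its partners Mafg and Mafk 0.08 and -0.01, its competitor Bach1 0.13, and Ahr and Arnt had 0.05 and -0.06. Ahr was well above background on 2 arrays only, and in the control dye on no endoglin siRNA array. A ratio near 0 therefore says little for it. The nuclear receptors Nr1i2 and Nr1i3, which drive drug-metabolizing genes in hepatocytes, were well above background on 1 array only.

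Of 16 genes of glutathione supply and the antioxidant response 2 rose and 1 fell. Osgin1 (0.48, adjusted p = 0.019) and the pentose phosphate enzyme transketolase Tkt (0.47, adjusted p = 0.028) were higher with the endoglin siRNA; Tkt was also higher in untreated cells (0.71, adjusted p = 0.031). The NADPH-making malic enzyme Me1 was lower on both endoglin siRNA arrays, at -1.14 and -0.96 (-1.05 ± 0.09, adjusted p = 0.0042), but its mean was 0.20 with median centring in place of loess. Widely used NRF2 targets did not pass: Gclc had 0.08, Gclm 0.01, Srxn1 -0.02, Txnrd1 0.09 and Prdx1 -0.06, and heme oxygenase Hmox1 had -0.38 (adjusted p = 0.10). Of 16 other oxidizing and hydrolysing enzymes 3 rose: the aldehyde oxidase Aox1 (0.76, adjusted p = 0.013), the xanthine oxidoreductase Xdh (0.74, adjusted p = 0.034) and the carbonyl reductase Cbr3 (0.43, adjusted p = 0.016). The exporter Abcc5 rose (0.57, adjusted p = 0.013), and none of 8 other conjugating enzymes passed. Of the electron donors of cytochromes P450 the oxidoreductase Por had -0.13 and Cyb5r3 fell by 0.28 (adjusted p = 0.033). Under median centring their means were 0.86 and 0.83.

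**Figure D4:**
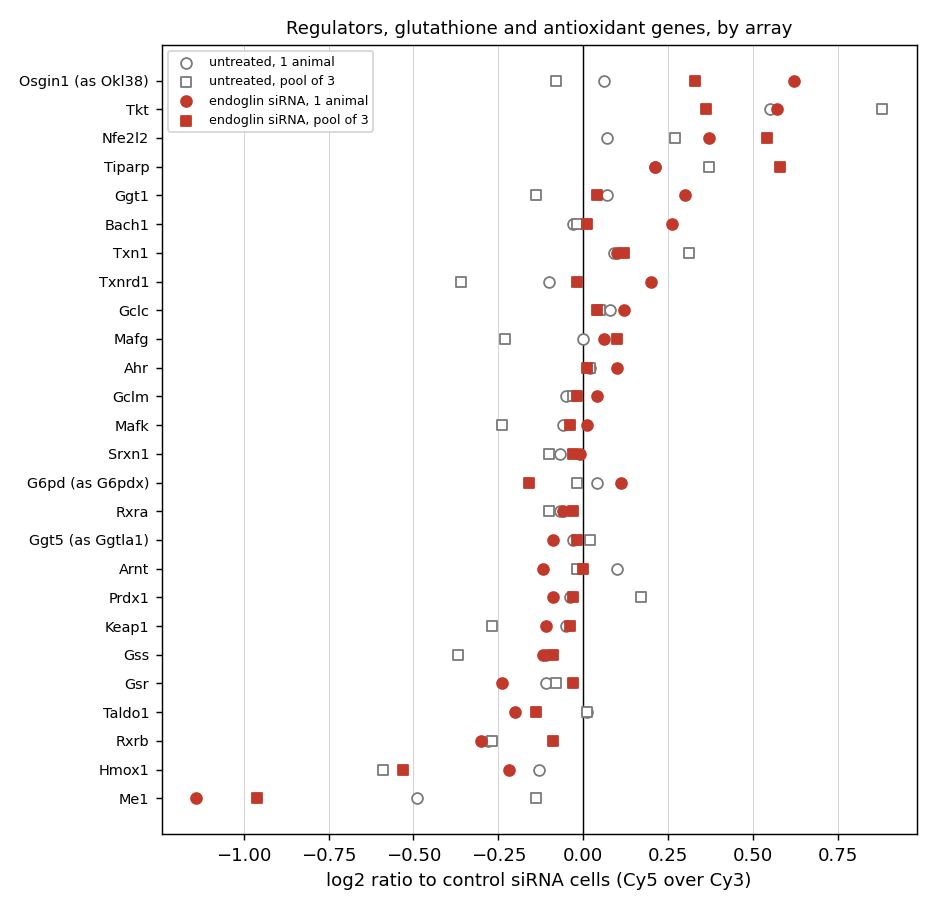
Log2 ratio to control siRNA cells (x axis, Cy5 over Cy3) of the 26 tested regulators and genes of the glutathione and antioxidant list (y axis), 1 point per array; red marks endoglin siRNA, open grey marks untreated, circles 1 animal and squares the pool of 3. Nfe2l2 and Osgin1 have both red points above both grey ones, Me1 lies lowest on both red arrays, and Gclc, Gclm and Srxn1 lie near 0.

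The calls depend on how the arrays were normalized. With median centring, scaling between arrays, or the ratios of Feature Extraction, 0 enzyme genes, and 0 genes of all tested, passed by limma in any comparison, while 25 (36.8%), 8 (11.8%) and 25 (36.8%) of the 68 had an unadjusted p under 0.05 against the control siRNA, beside 24.2%, 5.58% and 27.8% of all genes. All of the 10 genes stayed positive under each of these, but not every setting could show otherwise. Scaling keeps the sign of each ratio. Median centring leaves a dye trend with brightness in place and moves the median of all genes from 0.02 to 0.32. Aldh2 and Gstm2, at -0.13 and -0.30 with loess, had 1.12 and 0.61 under it. Ephx1 had 0.80 with the Feature Extraction ratios and 1.71 with median centring. Without the single-animal endoglin siRNA array 6 rose (2.36% of all genes), Cyp1b1 fell (1.16%; its mean was above 0 with median centring) and Akr1b8, Cyp2e1, Gsta1 and Nqo2 did not pass (adjusted p between 0.054 and 0.091); without the pooled one 13 rose (5.04% of all genes), the 10 among them, and Aldh9a1 and Gstm2 fell (5.47%; both above 0 with median centring). Without either endoglin siRNA array, which leaves the untreated pair to set the spread, the Gstp probe was higher (1.37%) and Aldh9a1 and Gstm2 were lower (1.61%) in untreated than in control siRNA cells. The difference from untreated cells then passed for Akr1c15 and Ephx1 without the single-animal endoglin siRNA array (0.0587%), and for these, Akr1b8 and Cyp4b1 without the pooled one (0.564%). The difference of Ephx1 from untreated cells did not pass without the untreated single animal (adjusted p = 0.14) or the untreated pool (adjusted p = 0.26).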

How the data were processed

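Per the labels, total RNA was linearly amplified, labelled with 2 dyes and put on Agilent 4x44K rat arrays; the 4 arrays shared 1 slide and 1 scan, so no batch could be fitted. The authors extracted the spot intensity values (mean and local background, linear scale) per the file headers (Agilent Feature Extraction, version 9.5.1.1). The authors also deposited log10 ratios, which correlated with log10 of Cy5 over Cy3 at 1 on the endoglin siRNA arrays and at -1 on the untreated arrays. The build behind the probes is not given in the sources.

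From the intensities, background was corrected by normexp (offset 50) and dyes by loess within arrays (controls at weight 0) in limma 3.58.1 under R 4.3.3. Flagged spots were left out. Of 41012 gene probes 29845 were kept, and the brightest stood for each of 25534 genes. The limma model had 2 group means, 1 shared spread (5.27 prior degrees of freedom); p-values were adjusted over all genes by Benjamini-Hochberg at 0.05; 2 arrays per group limit the precision. Control siRNA cells entered only through the Cy3 dye of each array. Names were updated with RefSeq (GRCr8): 67 of the 68 members matched.

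The members and gene lists were chosen with earlier results of these data known. Named members are all that passed, the 8 highest and 8 lowest per comparison with the same sign on both arrays, and a list of enzymes (Ephx1, Cyp2e1, Nqo1, Cyp1b1, Cyp1a1, Cyp4b1, Akr1b and Akr1c, Aldh1a, Aldh2, Aldh3a1); other genes are named as examples of counts. Lists of sinusoidal endothelial and cholangiocyte markers were also counted: of 6 and 3 tested, Kdr rose by 0.87 and Sox9 fell by 1.09 with the endoglin siRNA (5.25% of all genes rose and 2.87% fell). Alternatives were other background corrections and normalizations, other probe rules, RNA source as a block, the sign of the deposited values and leaving out each array. The code was tested on simulated data.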

Additional observations from a re-analysis of the deposited data

Results flagged for a closer look

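Ephx1 differed between the groups under the same contrast: relative to control siRNA cells its log2 ratio was 0.78 with the endoglin siRNA and -0.21 in untreated cells, a difference of 0.98 that passed the test of the difference itself (adjusted p = 0.026), with both endoglin siRNA arrays above both untreated arrays.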

How the results depend on the processing

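The counts of enzyme genes passing (10 against control siRNA for the endoglin siRNA, 0 for untreated cells, 1 between these groups; 8.12%, 0.709% and 0.0862% of all genes) became 19, 1 and 3 without background correction (17.6%, 2.01% and 0.658% of all genes passed), 17, 1 and 3 without the extreme spots (16.3%, 1.81% and 0.776%), and 0 in each comparison with Feature Extraction ratios, median centring, scaling or the deposited table. With the deposited table's sign on the untreated arrays the last was 12 (11.4% of all genes). Keeping dim probes, requiring both dyes on all arrays, averaging probes or choosing members by current symbol gave 11, 0 and 1. With dim probes kept (6.47%, 1.01% and 0.133% of all genes) or both dyes required (11.6%, 1.09% and 0.139%) the added call was a fall of Aldh9a1. With probes averaged (6.94%, 0.517% and 0.0666%) it was a fall of Aldh7a1, whose 2 probes disagreed. The brighter had means of -0.11 with the endoglin siRNA and -0.08 in untreated cells. The other had -0.54 and -0.52, so it was about as low in untreated cells. With RNA source as a replicate block the counts were 16, 1 and 3 (15.5%, 4.09% and 1.06% of all genes), and the 10 genes kept their calls; the labels do not say that the arrays of 1 source share animals, and deviations of the 2 pairs correlated at 0.29. Leaving out 1 array, the lone one left in a group being assumed to vary like the other group's, gave 7 to 15, 0 to 3 and 0 to 4. The medians over the members (0.04, -0.01 and 0.04) became 0.01 and -0.02 (first and second) without background correction, 0.02 (first) without the extreme spots, 0.06, -0.03 and 0.08 with Feature Extraction ratios or the deposited table, 0.46 (endoglin siRNA) and 0.51 (between groups) with median centring, 0.05 (first) with scaling, 0.01 in each with dim probes kept, 0.06, -0.04 and 0.07 with both dyes on all arrays, and 0.01 (second) with the table's sign. Leaving out 1 array they ran from 0.01 to 0.04, from -0.02 to -0.01 and from 0.04 to 0.08. No called gene changed sign under any of these. The cause of these shifts was not tested. Ratios of dim probes are the least certain, and 17 of the 68 members were not above background in both dyes on every array.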

Other observations

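The rule by array name missed 14 tested genes whose current RefSeq symbol would fit it; they were looked up after the values of the members were seen. Of these 14 genes 1 passed against the control siRNA, where 8.12% of all genes did. It was Akr1c19, a neighbour of Akr1c12 on GRCr8. Its values were 0.39 and 0.29 on the endoglin siRNA arrays and 0.03 and -0.07 on the untreated arrays (0.34 ± 0.06, adjusted p = 0.025). Akr1c12l1 read 0.49 and 0.20 (adjusted p = 0.051), and a second entry of Akr1c12 read 0.46 and 0.16 (adjusted p = 0.065). For all of these reductase entries both endoglin siRNA values were above both untreated values, as they were for 24.4% of all genes. Whether probes of such close relatives share signal was not tested. Among the rest, Gsta3 (Yc2 on the array) had 0.22 (adjusted p = 0.075), Gstm4 -0.02, Aldh18a1, which makes a proline precursor, -0.28 (adjusted p = 0.056), and Gstt3 -0.34, from -0.66 for 1 animal and -0.03 for the pool.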
